A study of Mus musculus with 6 samples.

Results

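The genes for the proteins of the cytoplasmic ribosome were examined in whole kidneys of mouse embryos. They were taken as every gene of the deposited expression table whose symbol is Rpl, Rps or Rplp followed by a number and at most 1 further small letter. This gave 74 of 11578 genes, 44 for the large subunit and 30 for the small subunit. GENCODE M21 has 79 protein-coding genes with such a symbol, and the other 5 (Rpl10l, Rpl26, Rpl34, Rpl39l and Rpl3l) are not analysed here. The study set kidneys with a deletion of the SRM against kidneys labelled Sall1 wild type at the same stage, with 3 libraries for each genotype. The SRM is the Sall1 repression motif, a short stretch at the start of the zinc finger protein Sall1 that recruits the NuRD chromatin remodelling complex. Mutant libraries carry the numbers 328, 336 and 342 and wild type libraries the numbers 330, 331 and 337, and values for single libraries are given below in that order. The labels give the stage as embryonic day 17, with a slightly later time in the extraction protocol, and they do not give the number of mutant alleles, the strain, the sex or whether the kidneys came from separate embryos or litters. P-values therefore set each difference against the spread between these kidneys, and whether that is a spread between animals or litters is not known. In RNA from a whole organ, fewer cells of a type and less RNA per cell cannot be told apart.

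The mammalian ribosome joins a large and a small subunit, and nearly all of its proteins are needed in equal numbers. Their mRNAs are abundant in growing tissue. These mRNAs begin with a run of pyrimidines at the cap, the terminal oligopyrimidine tract, through which the mTOR pathway and the RNA-binding protein Larp1 set how well they are translated. When ribosome assembly fails, free Rpl5 and Rpl11 bind Mdm2 and so stabilise p53. Most ribosomal protein genes also have processed pseudogenes, copies of the mRNA scattered over the genome.

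A pyrimidine run near the start is common among the members, and it is shown here for 7 genes that the results below turn on. RefSeq promoter sequences of GRCm38.p6 matched 54 of the 74 members by symbol. A run of at least 10 bases of C or T on the coding strand, within 50 bases of the annotated start on either side, was present in 38 of the 54 (70.4%), against 18.0% of all 27025 promoters. The median longest run was 10.5 bases in the members and 7 in all promoters. The letters CCGGAAG on either strand, a form of the site of the ETS factors, were found between 250 bases before and 50 bases after the start in 21 of the 54 (38.9%) and of 9.12% of all promoters. These are matches of letters and not measured sites. In the windows of 40 bases that follow, written 5′ to 3′ on the coding strand, capitals mark the longest pyrimidine run.
Rpl27a, chr7:109519179-109519218, plus strand: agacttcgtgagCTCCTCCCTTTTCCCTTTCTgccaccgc
Rpl13, chr8:123102322-123102361, plus strand: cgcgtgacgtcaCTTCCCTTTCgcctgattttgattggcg
Rplp2, chr7:141447634-141447673, plus strand: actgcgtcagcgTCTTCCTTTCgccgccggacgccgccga
Rpl5, chr5:107900496-107900535, plus strand: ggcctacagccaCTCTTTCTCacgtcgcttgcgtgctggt
Rps6, chr4:86857341-86857380, minus strand: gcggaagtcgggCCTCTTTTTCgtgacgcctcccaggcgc
Rps27, chr3:90213623-90213662, minus strand: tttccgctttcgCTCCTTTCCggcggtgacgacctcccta
Rps27l, chr9:66946052-66946091, plus strand: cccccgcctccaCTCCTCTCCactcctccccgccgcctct
Among these 7 windows the longest run is the 20 bases of Rpl27a, and the shortest are the 9 bases of Rpl5, Rps27 and Rps27l, under the minimum of 10 used for the count. The marked runs of Rpl13, Rpl5 and Rps27l end before the annotated start, so by this annotation they lie outside the mRNA.

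The deposited values are whole-number signal per gene, scaled by the authors so that each library sums to between 555147910 and 559251769. The values of a library fall on multiples of a spacing, and dividing the total by that spacing gave a relative depth of 3.99, 1.92 and 4.34 for mutants 328, 336 and 342 and of 4.12, 1.54 and 1 for wild types 330, 331 and 337. Mutants 328 and 342 and wild type 330 thus form a deeper class and the other 3 libraries a shallower one. The spacing is less certain in the deeper class. The periodic pattern in the values had a strength of at most 0.1391 there, against at least 0.5619 in the shallower class. In each deeper library it was below the strength calculated for the chosen spacing, which was 0.131 to 0.184. Reads behind a value are unknown, so no counting interval is given. Sall1 itself had a signal of 146230, 161553 and 130258 in the mutants and 176175, 152644 and 171578 in the wild types, which checks nothing because the deletion leaves most of the transcript in place. All 5 nephron progenitor, 5 proximal tubule, 4 loop of Henle, 4 podocyte and 5 ureteric tree markers had a value, and none of the 5 adrenal or 4 muscle markers did. Each of the progenitor and loop lists held 1 gene past the threshold, where 0.285% of all genes passed. Both are named after their values were seen. Cited1, a marker of the youngest nephron progenitors, fell in the mutants, with a log2 difference of -1.70 and an SE of 0.272 (limma, adjusted p = 0.0240), while Eya1 (-0.32), Crym (-0.50), Six2 (0.11) and Meox1 (0.23) did not pass. The loop of Henle channel gene Kcnj1 fell with -1.24 and an SE of 0.173 (limma, adjusted p = 0.0162), while Slc12a1 (-0.86), Cldn16 (-0.32) and Umod (0.087) did not pass. The groups did not overlap for Cited1 or Kcnj1, with every mutant lower, an order seen in 8.42% of all genes.

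Ribosomal protein genes did not separate the genotypes. None of the 74 passed an adjusted p of 0.05 with limma, in a comparison where 0.285% of all genes passed, and the lowest adjusted p among the members was 0.231, for Rpl27a. At an unadjusted p under 0.05 there were 9 members, 1 higher in the mutants (Rpl12) and 8 lower, among them Rpl27a, Rps27a, Rplp1, Rpl36a, Rpl39, Rps16 and Rps20. Over all genes 19% had such a p, 10.5% higher and 8.51% lower. The authors' deposited table gives no member a p-value under 0.05, its lowest being 0.0585 for Rpl27a, where 8.71% of all genes lie under that value. Only Rpl27a had all 3 mutant values below all 3 wild type values, an order seen in 8.42% of all genes, and 0 members had all mutant values above, against 11.1% of all genes.

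The estimated differences leaned to the lower side. The median log2 difference, mutant minus wild type, was -0.15 (quartiles -0.44 and 0.09) where that of all genes was 0.02, and 49 of the 74 members (66.2%) lay lower in the mutants against 47.6% of all genes. Both subunits had the same median, -0.15, with 27 of 44 large subunit and 22 of 30 small subunit genes on the lower side. Single differences ran from -0.82 for Rpl37a to 0.73 for Rpl12, with a median SE of 0.275. The members together took 1.95%, 1.47% and 2.41% of the signal in the mutants and 2.31%, 1.98% and 1.94% in the wild types, so the mutants held both the lowest and the highest share. The group means were 1.95% ± 0.469 and 2.08% ± 0.202 (SD, n = 3 each). Without mutant 336 the mean share of the other mutants was 2.18%, the median difference was 0.05 and 33 members lay lower.

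**Figure D1:**
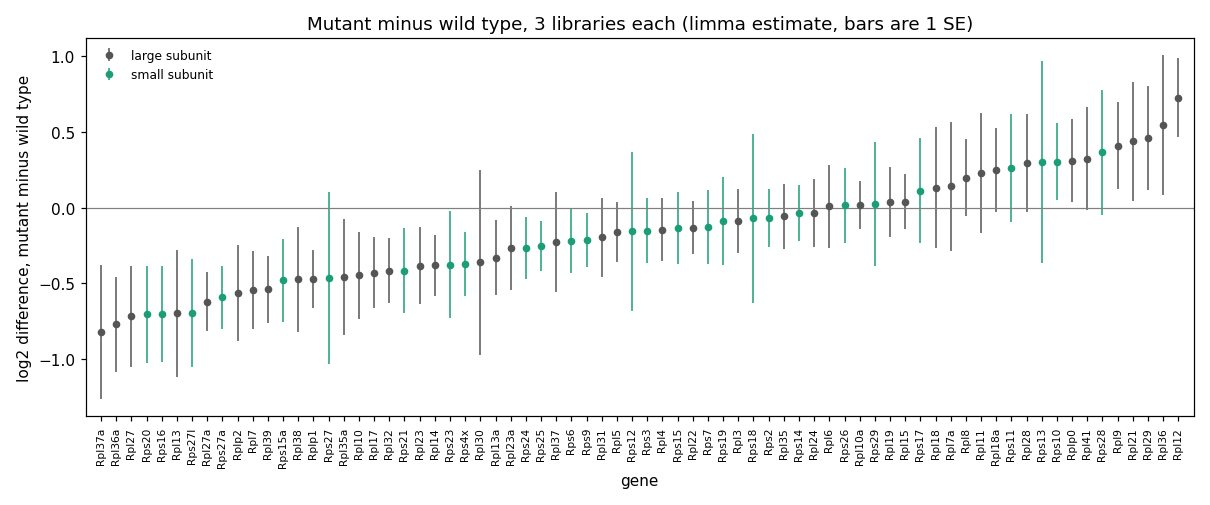
Log2 difference (mutant minus wild type, vertical axis) for 72 of the 74 genes on the horizontal axis, ordered by size, as points with bars of 1 SE from limma on 3 libraries a group. The estimates run from -0.82 (Rpl37a) to 0.73 (Rpl12), large and small subunit genes are mixed along the order, and none passed an adjusted p of 0.05.

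Mutant 336 was low for most members. It gave the lowest of the 6 values for 51 of the 74 members (68.9%), while it was the lowest for 14.4% of all genes and for 36.1% of the 617 other genes with transcripts under 1000 bases, the length class that 55 of the members belong to. It lay below both other mutants in 65 members, where 35.9% of all genes had that order, and below all 3 wild types in 53, where 23.7% did. Measured as the deviation of log2 signal from each gene's own mean, the median member stood at 0.02, -0.54 and 0.30 in the mutants and at 0.27, -0.00060 and -0.06 in the wild types. Mutant 336 was thus low for the set, and mutant 342 and wild type 330 were high. The other short genes went the same way by less, with a median of -0.28 in mutant 336, 0.22 in mutant 342 and 0.12 in wild type 330. The part that transcript length, library preparation or RNA quality had in this was not tested.

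**Figure D2:**
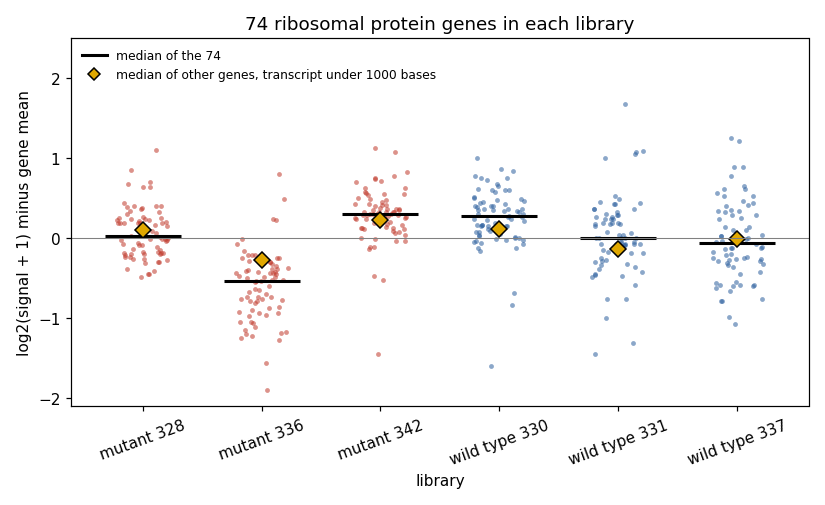
Deviation of log2(signal + 1) from the gene's mean over the 6 libraries (vertical axis) for each of the 74 genes (points) in each library (horizontal axis), with the median of the 74 as a bar and that of the 617 other genes with short transcripts as a diamond. The median bar is lowest in mutant 336 at -0.54 and highest in mutant 342 at 0.30 and wild type 330 at 0.27.

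Wild type 330 was closer to mutant 342 than to the other wild types. Over the 74 members, log2 signal in wild type 330 correlated with mutant 342 at r = 0.990, and with wild types 331 and 337 at 0.879 and 0.899. The median absolute log2 difference between wild type 330 and mutant 342 was 0.117, where every other pair of libraries had 0.287 to 0.887. Over all genes the r of wild type 330 was 0.980 with mutant 342, 0.924 with wild type 331 and 0.914 with wild type 337. The likeness is thus not particular to the members. With mutants 328 and 336 its r was 0.975 and 0.959 over all genes, and 0.960 and 0.921 over the members. Each of these was above its r with either other wild type. By median absolute log2 difference over the members, wild type 330 lay 0.287 from mutant 328 but 0.856 from mutant 336. From wild types 331 and 337 it lay 0.379 and 0.555. These correlations are across genes and describe pairs of libraries. Wild type 330 shares the deeper class with mutants 328 and 342 but not with mutant 336. Wild type 330 was above both other wild types in 42 members (56.8%), against 40.8% of all genes, and below both in 19.

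Many members split by depth class. In 27 of the 74 all 3 deeper libraries lay above all 3 shallower ones, an order seen in 15% of all genes, and in 2 (Rps14 and Rps24) all 3 lay below, against 15.1% of all genes. The largest mean differences between the classes, deeper minus shallower on the log2 scale, were 1.54 for Rpl36 and 1.44 for Rps12, the latter named after its values were seen. When the fit held a term for depth class, the median mutant minus wild type difference was -0.31, 62 members lay lower, and none passed an adjusted p of 0.05, where 0.371% of all genes did. At an unadjusted p under 0.05 there were then 1 higher and 24 lower members, against 8.65% and 7.1% of all genes. For each gene this estimate is the mean of its differences within the deeper and within the shallower class. The fit therefore also rests on mutant 336, the lone mutant of the shallower class and the library that was lowest for most members. Within the deeper class, mutants 328 and 342 against wild type 330, the median was -0.10, and none passed, where 0.605% of all genes did. Wild type 330 is the lone wild type there and is assumed to vary like the mutants. Within the shallower class mutant 336 is the lone mutant against wild types 331 and 337, and there the median was -0.53 with 24 members past the threshold, 1 higher and 23 lower, against 2.64% and 3.44% of all genes. That comparison assumes that the lone mutant varies like the wild types, and it rests on the library that was lowest for most members.

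**Figure D3:**
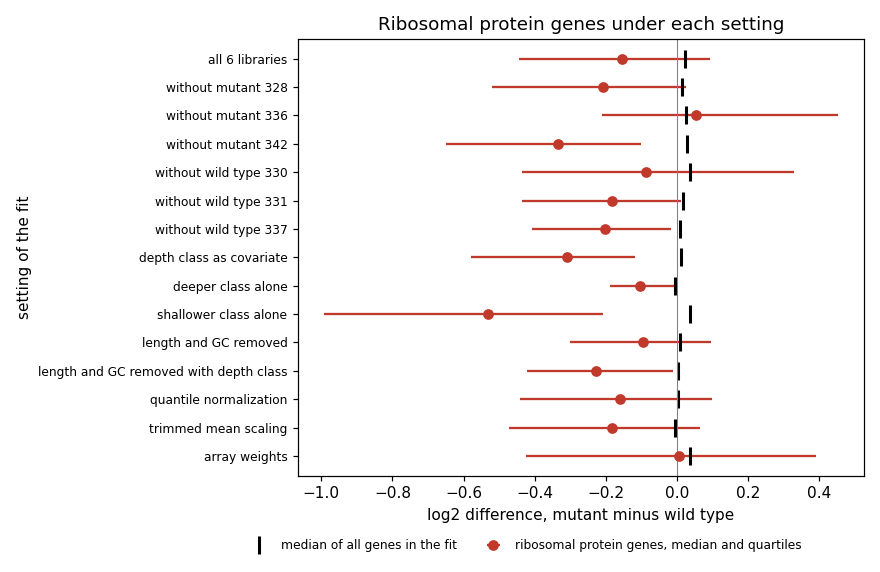
Median (point) and quartiles (line) of the log2 difference, mutant minus wild type, over the 74 genes for each setting of the fit listed on the vertical axis, with the median of all genes in that fit as a black tick. The median is -0.15 with all 6 libraries, 0.05 without mutant 336, -0.33 without mutant 342 and -0.53 in the shallower class alone.

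Replicate libraries spread more for these genes than for most others. The median residual SD on the log2 scale was 0.476 for the members, 0.263 for all genes and 0.223 for the 4896 other genes with a mean log2 signal at or above the members' lower quartile, and 66 of the 74 members lay above the median of all genes. The highest library exceeded the lowest more than 3 times in 23 members (31.1%), against 7.23% of all genes. Rpl10a, the protein of the large subunit's mobile L1 stalk, had the tightest values and is named after they were seen, with 161549, 157846 and 180597 in the mutants and 171962, 145866 and 177552 in the wild types. Rps13, a small subunit protein encoded on chromosome 7 (GRCm38, positions 116331505 to 116334195, minus strand), had the widest and is named here after its values were seen. It had 148026, 119782 and 25141 in the mutants and 22847, 137907 and 75891 in the wild types. Its low libraries were mutant 342 and wild type 330, the pair that was high for most members, so the spread of Rps13 crossed the genotypes. Without mutant 336 the median residual SD was 0.338 for the members and 0.265 for all genes, so the gap was smaller in that fit.

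**Figure D4:**
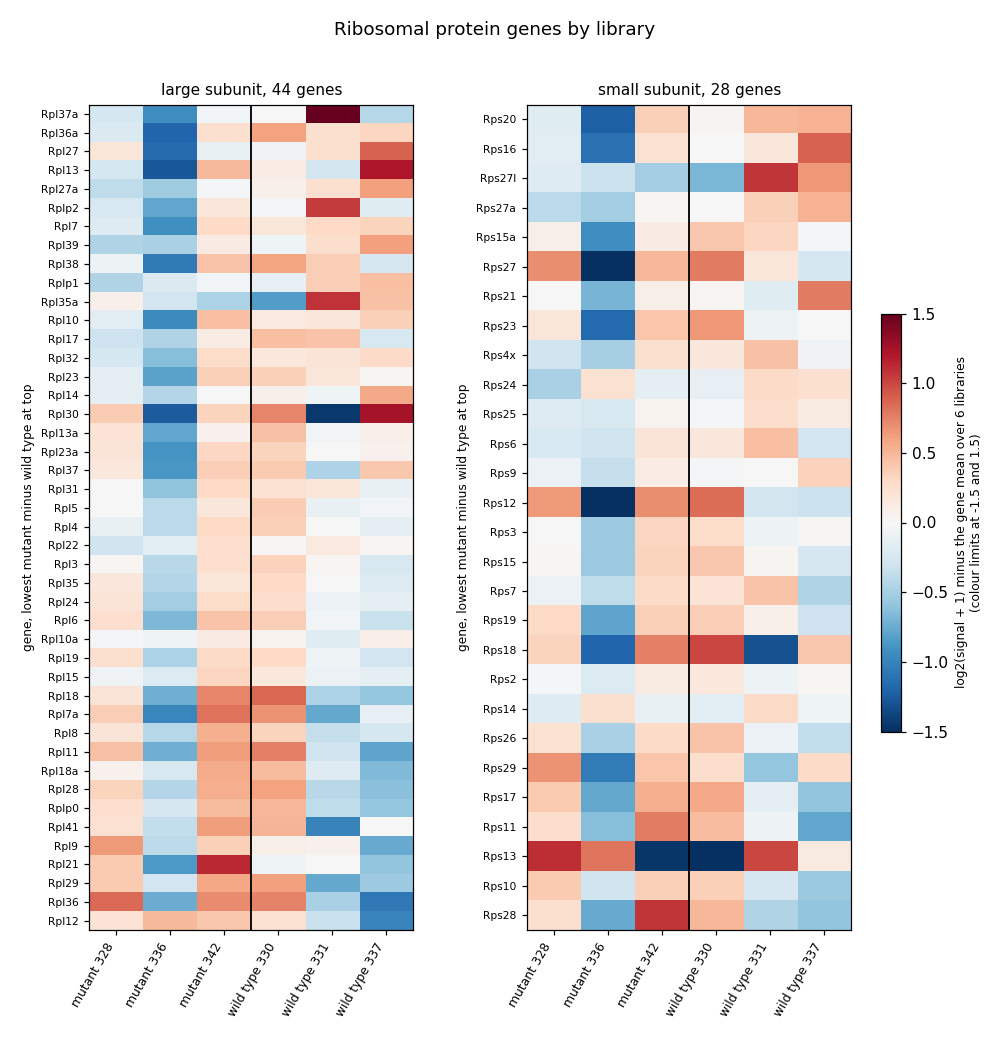
Deviation of log2(signal + 1) from the gene's mean (colour, limits at -1.5 and 1.5) for the 44 large and 28 of the 30 small subunit genes (rows, lowest mutant minus wild type difference at the top) in the 6 libraries (columns, a line between the genotypes). The column of mutant 336 is blue for most genes, and the columns of mutant 342 and wild type 330 look alike, down to the low value of Rps13 in both.

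The stalk of the large subunit, which recruits the elongation factors, is made of Rplp0 and the small acidic proteins Rplp1 and Rplp2. Rplp0 had 876996, 620767 and 1024048 in the mutants and 1044333, 566381 and 494076 in the wild types. The groups overlapped, with wild type 330 the highest and wild type 337 the lowest. The log2 difference was 0.31 with an SE of 0.274 (limma, adjusted p = 0.509). All deeper libraries lay above all shallower ones for Rplp0. With the depth class as covariate its difference was 0.045, and in the deeper class alone -0.14. Rplp1 had 181075, 213988 and 241116 against 228376, 320065 and 340368. Wild types 331 and 337 were above every mutant while wild type 330 fell inside the mutant range, and the difference was -0.47 with an SE of 0.192 (limma, adjusted p = 0.249). Rplp2 had 84090, 57579 and 111786 against 96839, 205390 and 87678, where 1 wild type, 331, stood far above the rest, and the difference was -0.56 with an SE of 0.317 (limma, adjusted p = 0.324). Without wild type 330, Rplp0 passed on the higher side with a difference of 0.64 (limma, adjusted p = 0.0449). Rplp1 then passed on the lower side with -0.65 (limma, adjusted p = 0.0166), while Rplp2 did not pass (limma, adjusted p = 0.121). In that fit 26.7% of all genes passed. Its wild types, 331 and 337, are of the shallower class while mutants 328 and 342 are of the deeper one, so genotype and depth are mixed there. The 3 genes of this complex thus had estimates of both signs. Rpl12, which binds the rRNA at the foot of the stalk, is encoded on chromosome 2 (GRCm38, 32961559 to 32965345). It had 197464, 240864 and 226313 against 201860, 136076 and 86391, with wild types 331 and 337 below every mutant and wild type 330 just above mutant 328. Its difference was the largest positive one among the members, 0.73 with an SE of 0.258 (limma, adjusted p = 0.236).

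Among the other large subunit genes, Rpl27a had the clearest order. It is encoded on chromosome 7 (GRCm38, 109519147 to 109522367, plus strand) and carries the longest pyrimidine run of the windows printed above. Its signal was 86404, 77532 and 111321 in the mutants and 118703, 133010 and 171889 in the wild types. Every mutant lay below every wild type, with mutant 342 close under wild type 330, and the difference was -0.62 with an SE of 0.197 (limma, adjusted p = 0.231). The lowest estimate was that of Rpl37a, a zinc-binding protein, with 18640, 11701 and 21820 against 22262, 71122 and 16604. Wild type 331 stood far above the other 5 libraries, and wild type 337 lay inside the mutant range. The difference was -0.82, and it was -0.19 without wild type 331 and -1.24 without wild type 337. Rpl13 and Rpl27 are further proteins of the subunit's outer shell. Rpl13 had 81516, 40577 and 136807 against 105554, 81154 and 226483, with mutant 336 lowest and wild type 337 highest. Rpl27 had 30338, 12013 and 24632 against 25781, 31492 and 49390, again with mutant 336 lowest and wild type 337 highest. The differences of Rpl13 and Rpl27 were -0.70 and -0.72, and without mutant 336 they were -0.24 and -0.32.

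Several of the genes with the highest positive estimates split by depth class. Rpl36 had 57237, 19056 and 52017 against 53384, 22649 and 15126. The 3 deeper libraries formed one level and the 3 shallower ones another, whatever the genotype. The same split held for Rpl29, a protein that mice can lack at the cost of small body size, with 31715, 19695 and 36037 against 36980, 14173 and 16532. Rpl21 had 54053, 22572 and 89581 against 39160, 41257 and 27172, with mutant 342 the highest and mutant 336 the lowest. Rpl9 had 90178, 44157 and 74372 against 61319, 60415 and 34275. Mutants 328 and 342 were above every wild type and mutant 336 was not, and here too every deeper library lay above every shallower one. The log2 differences of Rpl36, Rpl29, Rpl21 and Rpl9 were 0.54, 0.46, 0.44 and 0.41, and their lowest adjusted p with limma was 0.418.

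The p53 link of the ribosome runs through Rpl5 and Rpl11. Rpl5 had 133352, 101635 and 150632 in the mutants and 174886, 124504 and 130769 in the wild types, with a difference of -0.16 and an SE of 0.198 (limma, adjusted p = 0.644). Rpl11 had 61047, 27087 and 69602 against 75642, 36429 and 26036, with a difference of 0.23 and an SE of 0.398 (limma, adjusted p = 0.754). The groups overlapped for each gene, and in both genes the 3 deeper libraries lay above the 3 shallower ones. Of 8 genes listed for ribosomal stress and p53, all had a value and none passed the adjusted threshold. At an unadjusted p under 0.05, 2 were higher and 1 was lower, where 10.5% of all genes were higher and 8.51% lower. They are named here after their values were seen. Cdkn1a, the p53 target that halts the cell cycle, had 64826, 53476 and 51555 against 34273, 29809 and 24780, a difference of 0.94 with an SE of 0.189 (limma, adjusted p = 0.0877). Phlda3, a p53 target that restrains Akt, had 36068, 37068 and 29965 against 22554, 15902 and 12980, a difference of 1.04 with an SE of 0.228 (limma, adjusted p = 0.130). Every mutant was above every wild type for both genes, an order seen in 11.1% of all genes. Mdm2, which is itself induced by p53, had 27276, 25854 and 31271 against 32946, 36016 and 45951, in the opposite order, seen in 8.42% of all genes. Trp53 had 84796, 89902 and 93618 against 88743, 63417 and 93904, a difference of 0.14 with an SE of 0.184. The list had a median difference of 0.16 where that of all genes was 0.02, and p53 targets in it had estimates of both signs.

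In the small subunit, Rps20 and Rps16, both proteins of its head, had the lowest estimates. Rps20 had 173566, 84163 and 252322 against 202751, 277601 and 283875. Rps16 had 123992, 64474 and 164208 against 139602, 157360 and 258280. In both, mutant 336 was the lowest library and mutant 342 fell inside the wild type range. Their differences were -0.71 and -0.70, and without mutant 336 they were -0.27 and -0.32. Rps28, a protein near the mRNA exit, had the highest estimate of the small subunit, 0.37 with an SE of 0.413, from 20471, 10269 and 36482 against 24462, 12686 and 11543. Rps6, the substrate of the S6 kinases at the foot of the mTOR pathway, had 230221, 220168 and 309628 against 302906, 368448 and 221717. Its groups overlapped, and the difference was -0.22 with an SE of 0.212 (limma, adjusted p = 0.548). Rps29, a zinc-binding protein of the head, had 19385, 5888 and 16227 against 14577, 8120 and 14907 and a difference of 0.02 with an SE of 0.411.

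Rps27 and Rps27l are paralogs that encode alternative forms of the same small subunit protein, and Rps27l is known as a p53 target in human cells. Their coding sequences in GENCODE M21 are 252 bases each and differ at 60 of them (76.2% identity). Rps27 had 13879, 2305 and 12151 in the mutants and 14667, 9742 and 7171 in the wild types. Mutant 336 was far below the rest, and the 3 deeper libraries were above the 3 shallower ones, so the groups overlapped. Rps27l had 24308, 22158 and 19288 against 17344, 58648 and 43669. Wild types 331 and 337 were above every mutant and wild type 330 was below every mutant. The difference of Rps27l was -0.70 with an SE of 0.358 (limma, adjusted p = 0.293). Without wild type 330 it was -1.21 with an SE of 0.194 (limma, adjusted p = 0.00326), and in the deeper class alone it was 0.32, so the call and the direction of Rps27l turned on which wild types were used. Per 1000 coding bases the mean signal was 39626 for Rps27 and 122629 for Rps27l. Rps27 has 3 near-identical pseudogenes and Rps27l has 0, so these values do not settle which level is higher. Rps27l was 1 of 9 members past the adjusted threshold without wild type 330, where 26.7% of all genes passed, 14.4% higher and 12.3% lower. The wild types left in that fit, 331 and 337, are of the shallower class, while mutants 328 and 342 are of the deeper one. The other members past the threshold there were Rpl12, Rpl29 and Rplp0 on the higher side and Rpl35a, Rplp1, Rpl27a, Rps27a and Rpl39 on the lower side. When limma weighted the libraries by their fit, 11 members passed against 30.2% of all genes, and Rps27l was again among them. That fit gave mutant 328 a weight of 5.33, wild type 330 the least at 0.298 and no other library more than 1.19. It thus leaned on 1 mutant of the deeper class and least on the only wild type of that class, so genotype and depth are mixed there too.

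The 4 X-linked members, Rpl10, Rpl36a, Rpl39 and Rps4x, all had lower estimates in the mutants, as 66.2% of the members did. They ran from -0.77 for Rpl36a to -0.37 for Rps4x. Mutant 336 was the lowest library for all 4. Without it the differences were -0.08 for Rpl10, -0.37 for Rpl36a, -0.43 for Rpl39 and -0.21 for Rps4x. Rpl36a, a protein at the exit site of the large subunit, had 15862, 8086 and 21850 against 27959, 21690 and 23015. Wild type 331 lay just under mutant 342, so the groups overlapped by 1 pair of libraries, and the adjusted p with limma was 0.249. Rps4x had 295944, 256707 and 429656 against 407631, 494106 and 351316, with mutant 342 inside the wild type range (limma, adjusted p = 0.328). Of these 4 genes, Rpl36a and Rpl39 had an unadjusted p under 0.05, where 8.51% of all genes were lower at that p.

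The levels of the members differed among themselves far more than between the genotypes. Per 1000 coding bases the mean signal ran from 24226 for Rps2 to 4204144 for Rpl41, with a median of 169826. The coding sequence of Rpl41 is only 75 bases of a transcript of 544. If signal from untranslated bases was counted, dividing by coding length raises the level of such genes. The part of this in the range was not tested. Among the 5 genes with the highest total signal were Rpl8, Rplp0, Rpl4 and Rps3, whose proteins sit at the peptidyl transferase centre, the stalk, the exit tunnel and the mRNA entry. Rpl8 had 878117, 572604 and 1114865 against 969518, 600904 and 639827. The groups overlapped, with mutant 342 the highest and mutant 336 the lowest. Rpl4 had 626471, 512050 and 836312 against 868831, 677644 and 617646. Rps3 had 572677, 396339 and 719823 against 698992, 548383 and 585849. Mutant 336 was the lowest library for Rpl4 and Rps3. Rpl31, at the end of the exit tunnel, was with Rps27 and Rps29 one of the 3 genes of lowest total signal and had 13514, 8907 and 16627 against 15789, 15297 and 12443.

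The level per coding length went with the number of near-identical pseudogenes. Of the 74 members, 69 had at least 1 annotated pseudogene that matched at least 90% of the coding sequence at 95% identity or more, with a median of 5 copies, 521 copies in all and up to 55 for Rpl21. Among the 5 without such a copy were Rpl8, Rplp2, Rps27l and Rps3. Median signal per 1000 coding bases was 548787 in the 19 members with 0 to 2 copies, 152596 in the 35 with 3 to 7 and 101727 in the 20 with 8 or more. Over the 74 genes Spearman's rho of copies and level was -0.48, given as a description, since the points share the same libraries. How the authors placed reads that match several copies is not given in the sources used here, so levels of members with copies are uncertain, and the part of such reads in these levels was not tested. The median difference between the genotypes was -0.22, -0.06 and -0.27 in the 3 copy classes, with no order by copies.

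**Figure D5:**
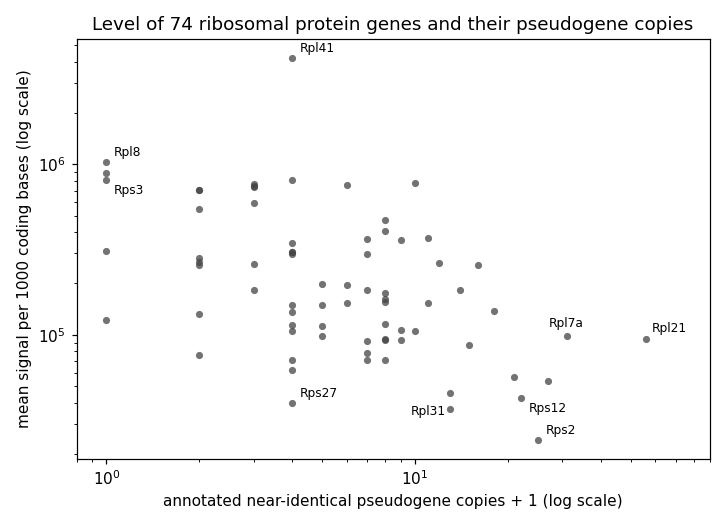
Mean signal per 1000 coding bases (vertical axis, log scale) against the number of annotated near-identical pseudogene copies plus 1 (horizontal axis, log scale) for the 74 genes, each a point. Levels spread from 24226 (Rps2, 24 copies) to 4204144 (Rpl41, 3 copies, with 75 coding bases in a transcript of 544). The median falls from 548787 with 0 to 2 copies to 101727 with 8 or more.

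Ribosome components and paralogs whose symbols fall outside the naming pattern also gave no call. All 7 had values, among them Rpsa, Fau, Gnb2l1, Rpl22l1, Rpl36al and Rpl7l1. None passed the adjusted threshold, 4 were higher and 3 lower, and the median difference was 0.19. Gnb2l1, the scaffold protein Rack1 on the small subunit head, had 1111639, 1015941 and 1300111 against 1213363, 876517 and 922600, with overlapping groups. Rpl22l1, the paralog of Rpl22, was the only one of the 7 with an unadjusted p under 0.05 and is named after its values were seen. It had 39054, 33128 and 56963 against 52219, 94525 and 68754, with mutant 342 just above wild type 330, and a difference of -0.73 with an SE of 0.253 (limma, adjusted p = 0.233).

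Genes for elongation factors and other proteins whose mRNAs carry the terminal pyrimidine tract gave no call either. All 18 listed had a value, none passed, 6 were higher and 12 lower, and the median difference was -0.08. Their median deviation was -0.28 in mutant 336, 0.19 in mutant 342 and 0.21 in wild type 330, which were also the low and the high libraries of the members. Eef1a1, which brings aminoacyl-tRNA to the ribosome, had 2721353, 2638715 and 3379550 against 3757110, 3823532 and 2941982, with mutant 342 above wild type 337. With an unadjusted p under 0.05 were Pabpc1, the poly(A)-binding protein, and the histone chaperone Nap1l1, with log2 differences of -0.45 and -0.54. Of all genes 8.51% were lower at that p. In both genes every mutant lay below every wild type, an order seen in 8.42% of all genes. They are named after their values were seen.

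The genes that regulate ribosomal protein output gave no call. Of 15 regulators of the translation and transcription of these mRNAs, 9 were higher and 6 lower, none passed, and the median difference was 0.05. Larp1 had 108566, 117452 and 108853 against 122608, 98476 and 103703. Mtor, the kinase of the pathway, had 85622, 86238 and 74347 against 73939, 54045 and 70793. For Larp1 the groups overlapped. For Mtor every mutant lay above every wild type by little (limma, adjusted p = 0.321), an order seen in 11.1% of all genes. The single regulator with an unadjusted p under 0.05 was Rps6kb1, an S6 kinase, with 31443, 35150 and 32102 against 36018, 50727 and 60622 and an adjusted p of 0.243 with limma. Mtor and Rps6kb1 were chosen after their values were seen. The 8 chaperones that escort new ribosomal proteins had a median of -0.06, with 2 higher and 6 lower and none past the threshold. Bccip, the most abundant of them by total signal and a partner of Rpl23, had 54025, 98563 and 64991 against 55141, 70528 and 98585, with mutant 336 and wild type 337 high. Named after their values were seen, Grwd1, a chaperone of Rpl3, was the one higher chaperone with an unadjusted p under 0.05, and Heatr3, which acts on Rpl5, the one lower. Of all genes 10.5% were higher and 8.51% lower at that p.

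Markers of other cells were compared by their summed signal. Of 7 erythroid genes 3 had a value (Hba-a1, Hba-a2 and Alas2), and their summed signal was 1888682, 1391570 and 2952952 in the mutants and 2598041, 1634266 and 1856597 in the wild types. This sum was lowest in mutant 336 and highest in mutant 342 and wild type 330, as the members' share was. The single genes did not all follow that order. Only Hba-a2 was lowest in mutant 336, while Hba-a1 and Alas2 were lowest in wild type 331. Hba-a2 was also higher in wild type 337 (1011482) than in wild type 330 (982302). All 6 proliferation markers were lower in the mutants, where 47.6% of all genes were lower. Their median difference was -0.35, with none past the adjusted threshold. Their summed signals were 652845 to 741631 in the mutants and 828660 to 1100750 in the wild types. All 4 macrophage markers with a value were higher, as 6071 of all 11578 genes were, with summed signals of 62487 to 66165 against 30671 to 40623. Also higher were 4 of 4 podocyte (median 0.30), 4 of 4 stroma (0.32) and 4 of 5 proximal tubule markers (0.42). Lower were 3 of 5 nephron progenitor (-0.32), 3 of 4 loop of Henle (-0.59) and 3 of 5 ureteric tree markers (-0.21). Of 4 endothelial markers 2 were lower (-0.02). The part of these cell types in the ribosomal protein values was not tested.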

How the data were processed

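Polyadenylated RNA from 4 to 5 µg of total RNA per kidney was made into Ion Torrent libraries, per the labels' protocols. The authors deposited 1 table with a scaled signal per gene and library, group means, a ratio of means, log2 of the means and of the ratio, and a p-value, per the file headers. The submitters' processing notes name mm10 as build and bedtools as a tool. How reads were aligned, counted, scaled and filtered, and what became of reads with several matches, is not given in the sources used here. There were 0 sample columns left unused. Groups came from the genotype labels and numbers from the titles.

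A count test had been foreseen for read counts, but the signal is scaled, so the test for normalized values was applied: limma 3.58.1 (R 4.3.3, variance trend) on log2(signal + 1). P-values were adjusted by Benjamini-Hochberg over all 11578 genes, with a threshold of 0.05. Requiring 1 or more in 3 libraries removed 0 genes. Log2 differences are on that scale. The fit was checked on simulated data. Alternatives were another scaling, pseudocount, filter or variance model, array weights, each library left out, depth class as covariate or alone, and removal of transcript length and GC trends. Residual SD was added after seeing the data.

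Gene models came from GENCODE M21 on GRCm38, with 10951 genes matched by symbol, 566 by synonym and 61 not matched. Copies were found with blast 2.17.0, and promoters are the first start per gene in RefSeq. Named are members past the threshold, the 6 largest differences each way, the 5 of highest and 3 of lowest mean signal, the stalk proteins, symbols ending in l, Rps4x, Rps6, Rpl5, Rpl11, members without overlap between groups, and the most abundant gene of each list. A few genes are counted in the totals but not reported here by name. Other genes are named from small counts or as extremes, after their values were seen. The members and lists were chosen with earlier results of these data known.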

Additional observations from a re-analysis of the deposited data

How the results depend on the processing

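No paired analysis was possible because the genotypes share no replicate number. The test for read counts was not run because the table holds scaled signal. The number of members past the threshold was 0 in all settings but 3, with 9 without wild type 330, 11 with array weights and 24 in the shallower class alone, and ran from 0 to 9 over the libraries left out in turn. The median log2 difference of -0.15 became -0.53 in the shallower class alone and 0.0065 with array weights. It ran from -0.33 without mutant 342 to 0.05 without mutant 336, which alone turned it positive among the left-out libraries. The difference in share of signal ran from -0.365 to 0.104 percentage points over the left-out libraries. The median residual SD of 0.476 was 0.309 with the depth class as covariate, 0.229 in the deeper class, 0.216 in the shallower class and 0.234 with length and GC trends removed and the depth class, and 0.338 to 0.509 over the left-out libraries. For all genes this SD was 0.217 with the depth class as covariate, 0.121 in the deeper class and 0.184 in the shallower class. The cause of these changes was not tested, except that the class fits use fewer libraries. In each class fit the lone library of a genotype leaves no residual. Wild type 330 and mutant 336 therefore add nothing to the SD of their class.

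Of 593 values for 33 named genes under the alternatives, 508 kept direction and side of the threshold, 25 newly passed it and 60 changed sign. With the depth class as covariate the sign changed for Rpl11 (-0.20), Rpl8 (-0.043), Rps28 (-0.038), Rps29 (-0.31) and Bccip (0.17). In the deeper class it changed for Rpl11 (-0.21), Rpl13 (0.00067), Rpl27 (0.085), Rpl29 (-0.13), Rplp0 (-0.14), Rplp2 (0.0017), Rps16 (0.032), Rps20 (0.046), Rps27l (0.32), Gnb2l1 (-0.013), Larp1 (-0.17) and Bccip (0.10). In the shallower class it changed for Rpl11 (-0.19), Rpl21 (-0.57), Rpl8 (-0.11), Rpl9 (-0.043), Rps28 (-0.24), Rps29 (-0.90) and Bccip (0.24). With length and GC trends removed it changed for Rpl5 (0.20), Rpl8 (-0.046), Larp1 (-0.12), Bccip (0.26) and Trp53 (-0.039), and with the depth class as well for Rpl11 (-0.13), Rpl36 (-0.011), Rpl8 (-0.15), Rps27l (0.014), Rps29 (-0.10), Larp1 (-0.13), Bccip (0.46) and Trp53 (-0.0039). Array weights turned Rps27 (0.28), and quantile and trimmed mean scaling turned Rps29 (-0.026 and -0.0048). Over the left-out libraries the log2 difference changed sign within -0.11 to 0.66 for Rpl11, -0.014 to 0.98 for Rpl21, -0.40 to 0.055 for Rpl31, -0.33 to 0.020 for Rpl4, -0.021 to 0.46 for Rpl8, -0.42 to 1.10 for Rps13, -0.93 to 0.37 for Rps27, -0.078 to 0.84 for Rps28, -0.31 to 0.55 for Rps29, -0.35 to 0.079 for Rps3, -0.016 to 0.14 for Larp1, -0.29 to 0.17 for Bccip and -0.031 to 0.25 for Trp53. The cause was not tested.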
